A study of Mus with 9 samples.

Results

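The genes described are 9 receptors for dopamine, noradrenaline and adrenaline: the 5 dopamine receptors Drd1, Drd2, Drd3, Drd4 and Drd5 and the 4 adrenoceptors Adra1a, Adra1b, Adra2a and Adrb1. They were taken from the deposited tables by gene symbol, and each was represented by 1 of the 22206 probe sets, the groups of short probes that report 1 transcript cluster of the Clariom S Mouse array. Total RNA came from the hippocampus of 9 mice in 3 groups, with 3 arrays per group by the sample records. The SAMR1 group, a senescence-resistant strain, and the SAMP8 group, a senescence-prone strain, received vehicle by mouth for 30 days. The TG-treated SAMP8 group received trigonelline (TG), a plant alkaloid, at 5 mg/kg per day over the same 30 days. By the study's methods the SAMP8 mice used were males of 16 weeks, and the age at tissue collection is not given. A period of acclimatization came before the 30 days of dosing. All groups then went through 8 days of water maze testing before the tissue was taken, and TG was continued through the test.

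The records were not free of contradictions. The vehicle is saline in the sample records and water in the methods, the TG dose is written as a concentration in one field and per body weight in another, and the design text mentions RNA in duplicate where the records list 3 arrays per group. A free-text field of each record describes RAW264 cells, a macrophage line, although the titles and source fields name the mouse groups and the tissue field says hippocampus. Camk2a, a kinase abundant in forebrain excitatory neurons, stood at 19.93 in all 3 groups, at the top of the listed scale, and whether its probes were saturated was not tested. Neurod6, a transcription factor of pyramidal neurons, stood at 14.86 for SAMR1, 14.85 for SAMP8 and 14.88 for TG-treated SAMP8. The macrophage marker Cd68 stood at 4.60, 4.63 and 4.49 in the same order, and Adgre1 at 5.17, 4.89 and 4.81. Of 10 hippocampal neuron markers, 9 lay above the median probe set in SAMR1 and 10 in each SAMP8 group, whereas 2 or 3 of 8 macrophage markers did, a comparison of different probe sets that is limited by how each probe responds.

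All values below are the authors' group averages on a log2 signal scale, so a difference of 1 is a doubling. The tables used here hold 1 average per group and no value per array. No spread between mice could therefore be computed and no test was possible, and whether any difference exceeds the variation among the 3 arrays of a group cannot be said from these averages. Differences are read against a size limit of 1.5-fold, which is 0.585 on the log2 scale, and against the share of all probe sets beyond that limit. Since the averages are given with 2 decimals, rounding alone can move a difference by up to 0.01. A probe set's signal also depends on its probes, so levels were compared between groups and not between receptors.

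Dopamine and noradrenaline reach the hippocampus in axons from the midbrain and the locus coeruleus, where they tune synaptic plasticity and the storage of new memories. Their receptors all couple to G proteins. Drd1, Drd5 and Adrb1 stimulate the production of cyclic AMP, Drd2, Drd3, Drd4 and Adra2a inhibit it, and Adra1a and Adra1b act through phospholipase C and intracellular calcium. The study measured whether TG altered gene expression in a strain with early memory loss, and the receptors were followed here through the comparison of strains, the comparison of treated with nontreated SAMP8 and the comparison of treated SAMP8 with SAMR1.

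In the treated against the nontreated SAMP8 group, the averages of Drd2 and Adra1b stood furthest apart among the 9 receptors. Drd2 was 1.95-fold lower with TG, and Adra1b was 1.67-fold higher. The direction for Drd2 is that of the deposited averages and is opposite to the one that the study lists for this gene elsewhere, in values that were not used here. The other 7 receptors differed by 1.15-fold or less. Between the strains no receptor differed by more than 1.43-fold, a value that belonged to Drd4, which was lower in SAMP8. In bulk tissue such as this, fewer cells of a type and less RNA per cell cannot be told apart.

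**Figure D1:**
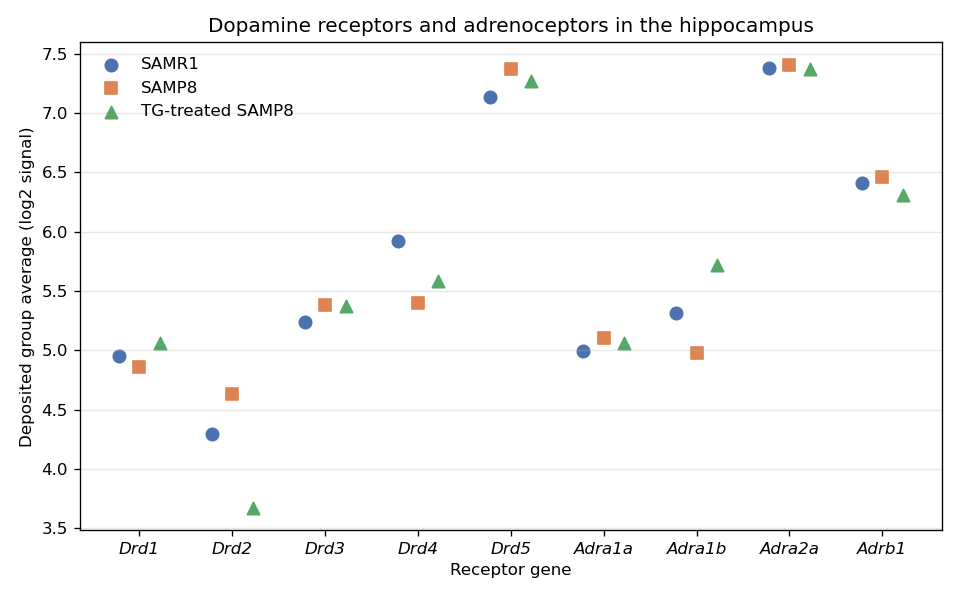
Group averages (log2 signal, vertical axis) of the 9 receptor genes (horizontal axis) in SAMR1 (circles), SAMP8 (squares) and TG-treated SAMP8 (triangles); each symbol is the authors' average of 3 arrays and carries no error bar because values per array were not used. The 3 averages span 0.96 for Drd2 and 0.74 for Adra1b, against 0.04 for Adra2a.

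Drd2 encodes the D2 receptor, which inhibits adenylyl cyclase, serves as autoreceptor on dopamine neurons and in the hippocampus is known from the mossy cells of the hilus. The gene lies on chromosome 9 from 49340360 to 49408177 in the mouse build GRCm38. Its average was 4.29 for SAMR1, 4.63 for SAMP8 and 3.67 for TG-treated SAMP8. SAMP8 was the highest group and TG-treated SAMP8 the lowest, with SAMR1 between them. The SAMP8 average exceeded that of SAMR1 by 0.34, or 1.27-fold. With TG the average was lower than in SAMP8 by 0.96 on the log2 scale (log2 difference -0.96), and it was also below SAMR1, with a log2 difference of -0.62 or 1.54-fold.

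The probe set of Drd2 was dim. Its mean over the 3 groups lay at percentile 20.8 of all probe sets, and it was the 1 receptor of the 9 that lay in the dimmest 25% of probe sets. In SAMR1 and TG-treated SAMP8 its averages were below the lower quartile of all averages of the group (4.45 and 4.40), while in SAMP8 the average was above it (4.33). How much of a signal this low is background of the array was not tested. Among the 4508 probe sets whose mean signal lay within 0.5 of that of Drd2, only 5 had a more negative difference between treated and nontreated SAMP8, and 24 differed by more in either direction. The median absolute difference of these probe sets was 0.18. In the comparison of treated SAMP8 with SAMR1, 156 of the same 4508 lay lower than Drd2, and in that of SAMP8 with SAMR1, 297 lay higher.

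The other D2-like receptors did not share this pattern. Drd3, on chromosome 16 from 43754015 to 43825982, encodes a receptor of limbic regions with high affinity for dopamine. Its averages were 5.24 for SAMR1, 5.38 for SAMP8 and 5.37 for TG-treated SAMP8, so that the treated and nontreated SAMP8 groups lay 0.01 apart, within rounding. Drd4, on chromosome 7 from 141291974 to 141296464, encodes the D4 receptor, known from cortical and hippocampal interneurons. It stood at 5.92 for SAMR1, 5.40 for SAMP8 and 5.58 for TG-treated SAMP8. SAMR1 was the highest group here, with a log2 difference of -0.52 for SAMP8 and of -0.34 for TG-treated SAMP8 against it. Of 2851 probe sets of like signal, 374 had a more negative strain difference than Drd4, and 547 differed by more in either direction.

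The D1-like receptors stood close together across the groups. Drd1, on chromosome 13 from 54051183 to 54055658, encodes the D1 receptor, which raises cyclic AMP and promotes long-term potentiation. Its averages were 4.95 for SAMR1, 4.86 for SAMP8 and 5.06 for TG-treated SAMP8, with TG-treated SAMP8 highest and 0.20 above SAMP8. Drd5, on chromosome 5 from 38319509 to 38322523, encodes the D5 receptor, which is known from pyramidal neurons of the hippocampus. It had averages of 7.14, 7.37 and 7.27 in that group order. SAMP8 was highest, by 0.23 over SAMR1, and of 2111 probe sets of like signal 1063 differed by more between the strains.

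Of the adrenoceptors, Adra1b differed most. The gene, on chromosome 11 from 43774605 to 43901250, encodes an alpha-1 receptor for noradrenaline that signals through phospholipase C. The average was 5.31 for SAMR1, 4.98 for SAMP8 and 5.72 for TG-treated SAMP8. SAMP8 was thus the lowest group and TG-treated SAMP8 the highest, with SAMR1 between, an order opposite to that of Drd2. The log2 difference was -0.33 for SAMP8 against SAMR1, 0.74 for TG-treated SAMP8 against SAMP8 and 0.41 for TG-treated SAMP8 against SAMR1. Both of the first comparisons contain the same SAMP8 arrays with opposite sign, so their opposite directions are not separate observations. Among 3152 probe sets of like signal, 76 lay above Adra1b in the comparison of treated with nontreated SAMP8, and 113 differed by more in either direction. Their median absolute difference was 0.20. The strain difference of Adra1b was exceeded in size by 1113 of them.

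The remaining adrenoceptors among the 9 varied little. Adra1a, on chromosome 14 from 66635251 to 66771240, encodes a second alpha-1 receptor with the same coupling and stood at 4.99 for SAMR1, 5.10 for SAMP8 and 5.06 for TG-treated SAMP8. Its range of 0.11 was narrower than that of 90.0% of 3506 probe sets of like signal. Adra2a, on chromosome 19 from 54045259 to 54048982, encodes the alpha-2A receptor, which inhibits noradrenaline release from nerve endings. Its averages were 7.38, 7.41 and 7.37 in the same order, and its range of 0.04 was the narrowest of the 9. Adrb1, also on chromosome 19, from 56722117 to 56725150, encodes the beta-1 receptor, which raises cyclic AMP and takes part in memory retrieval. It stood at 6.41 for SAMR1, 6.46 for SAMP8 and 6.31 for TG-treated SAMP8, a difference of -0.15 with TG.

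**Figure D2:**
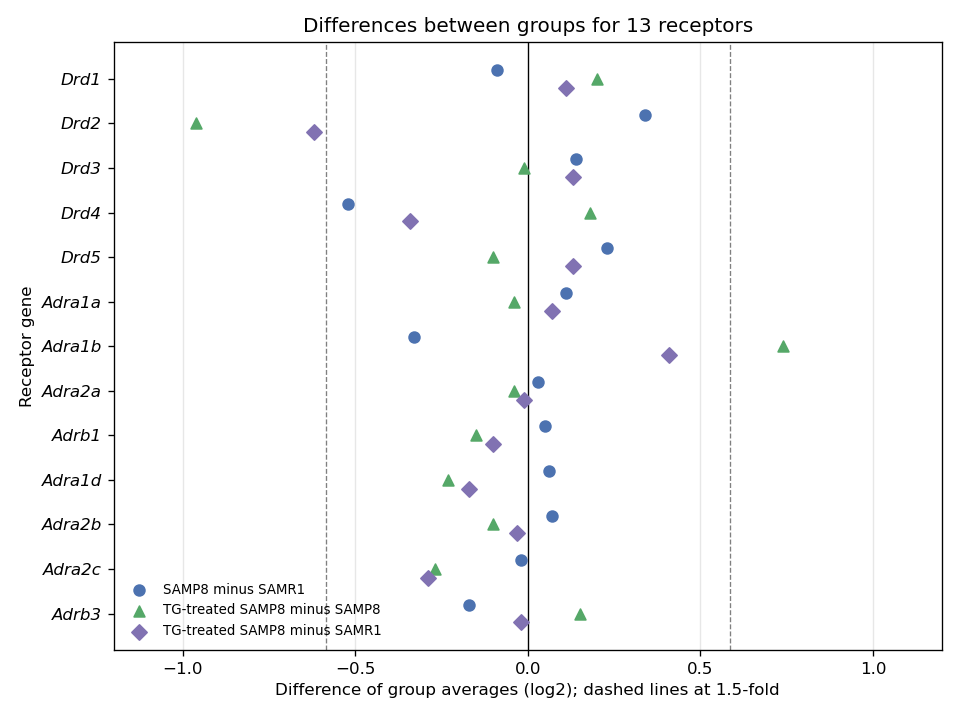
Differences between group averages (log2, horizontal axis) for the 9 receptors and 4 other adrenoceptors (vertical axis), with circles for SAMP8 minus SAMR1, triangles for TG-treated SAMP8 minus SAMP8 and diamonds for TG-treated SAMP8 minus SAMR1; dashed lines mark 1.5-fold. Beyond the lines lie Drd2, at -0.96 and -0.62, and Adra1b, at 0.74.

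Counted at the limit of 1.5-fold, 0 of the 9 receptors differed between SAMP8 and SAMR1, where 11.1% of all probe sets did. Between treated and nontreated SAMP8, 2 of the 9 were past the limit, against 8.21% of all probe sets. Of these, 1 was higher (Adra1b), where 4.48% of all probe sets were, and 1 was lower (Drd2), where 3.74% were. In TG-treated SAMP8 against SAMR1, Drd2 alone was past the limit, lower by 1.54-fold, in a comparison that placed 10.5% of all probe sets past it and 4.83% lower. Among 9 genes, counts of 0, 2 and 1 are too small to be told from these background shares. They were not tested and are no result about the receptors as a group. The median difference of the 9 was 0.05 for SAMP8 against SAMR1, -0.04 for TG-treated SAMP8 against SAMP8 and 0.07 for TG-treated SAMP8 against SAMR1. Over all probe sets the medians were 0.00, 0.01 and -0.01.

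**Figure D3:**
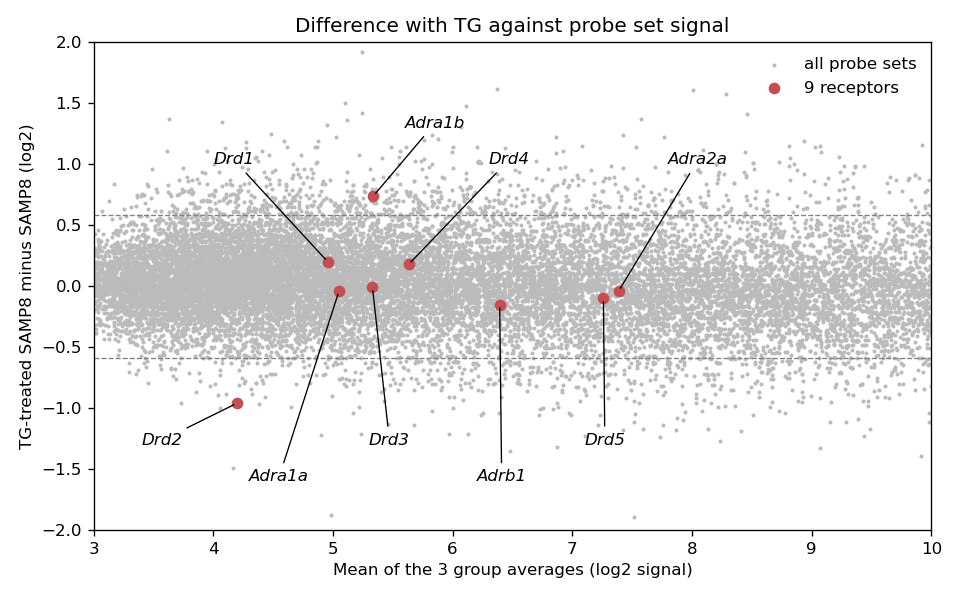
Difference between TG-treated and nontreated SAMP8 (log2, vertical axis) against the mean of the 3 group averages (log2 signal, horizontal axis) for all probe sets (grey) and the 9 receptors (red); dashed lines mark 1.5-fold, and 3711 probe sets outside the plotted ranges are not drawn. Drd2, at a mean signal of 4.20, lies at the lower edge of the probe sets of like signal, Adra1b lies above the upper line, and the other 7 receptors lie between -0.15 and 0.20.

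A further 4 adrenoceptors read beside them were all within the limit in every comparison. With TG against nontreated SAMP8, 3 of the 4 were lower and 1 was higher, from -0.27 to 0.15. Adra2c, an alpha-2 receptor that also limits transmitter release, stood at 5.85 for SAMR1, 5.83 for SAMP8 and 5.56 for TG-treated SAMP8. Adra1d, an alpha-1 receptor, stood at 6.96, 7.02 and 6.79 in the same order, lower with TG in these averages, whereas the study names it among genes that were higher. Adra2b was listed at 4.04, 4.11 and 4.01. Adrb3, the beta-3 receptor of fat tissue, stood at 3.71, 3.54 and 3.69. The Adra1b difference therefore had no counterpart of its size in Adra1a or Adra1d.

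The genes for making the transmitters and their cofactor were past the limit mostly in the comparison of TG-treated SAMP8 with SAMR1. Between SAMP8 and SAMR1, 1 of 9 genes was, namely Pts at 0.84, against 11.1% of all probe sets, and Qdpr at 0.57 and Ddc at 0.49 lay below the limit. Between TG-treated SAMP8 and SAMR1, 4 of the 9 were higher past 1.5-fold, against 5.62% of all probe sets, and 0 were lower. Th, the rate-limiting enzyme of catecholamine synthesis, was not among them: its averages were 5.39 for SAMR1, 5.39 for SAMP8 and 5.37 for TG-treated SAMP8. Pts, which makes the tetrahydrobiopterin cofactor of Th, stood at 7.89, 8.73 and 8.82, and Qdpr, which regenerates that cofactor, at 10.39, 10.96 and 11.27. For both, the lowest group was SAMR1, and TG-treated SAMP8 exceeded it by 0.93 and 0.88. Ddc, which turns L-DOPA into dopamine, stood at 4.55, 5.04 and 5.19. Dbh, which turns dopamine into noradrenaline, stood at 3.19, 3.55 and 3.86, although its signal lay at percentile 7.46 of all probe sets. Between treated and nontreated SAMP8, 0 of the 9 were past the limit, and the median difference was 0.15.

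Of 8 genes for transport and breakdown of catecholamines, 7 were lower with TG than in nontreated SAMP8 and 1 was higher. The median difference was -0.28, against 0.01 over all probe sets, and only the vesicular transporter Slc18a1 was lower past 1.5-fold, as were 3.74% of all probe sets. Slc18a1 was dim, at 3.87 for SAMR1, 4.24 for SAMP8 and 3.53 for TG-treated SAMP8. The monoamine oxidase gene Maoa stood at 8.11, 7.58 and 7.48 in the same order, highest in SAMR1, whereas Maob stood at 7.37, 8.00 and 7.57, highest in SAMP8. Between the strains only Maob of these 8 was past the limit, by 0.63, where 11.1% of all probe sets were. In TG-treated SAMP8 against SAMR1 only Maoa was, by -0.63, where 10.5% of all probe sets were. The plasma membrane transporters for noradrenaline (Slc6a2: 4.20, 3.88 and 4.02) and dopamine (Slc6a3: 4.68, 4.44 and 4.37), which mark the cell bodies of the projecting neurons, had dim probe sets and were within the limit.

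Downstream of the receptors, 1 of 10 G protein alpha subunit genes passed the limit between the strains and with TG, against 11.1% and 8.21% of all probe sets. Gnal, which couples D1 receptors to adenylyl cyclase in the striatum and is shared with the olfactory system, stood at 11.18 for SAMR1, 11.91 for SAMP8 and 11.07 for TG-treated SAMP8. SAMP8 was the highest group, by 0.73 over SAMR1 and 0.84 over TG-treated SAMP8. Gnas, the stimulatory subunit used in most tissues, stood at 16.72, 16.70 and 17.12, and was within the limit. Gnai1, Gnai2, Gnai3, Gnao1 and Gnaz, the inhibitory subunits through which D2-like and alpha-2 receptors act, were within it in all comparisons, from -0.45 to 0.58.

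Of 10 genes for receptor kinases, arrestins and regulators of G protein signalling (RGS), 2 were higher past the limit with TG than in nontreated SAMP8 and 0 were lower, against 4.48% and 3.74% of all probe sets. Rgs4, which shortens signals of inhibitory and phospholipase-coupled receptors, stood at 12.12 for SAMR1, 12.66 for SAMP8 and 13.34 for TG-treated SAMP8, a difference of 0.68 with TG and of 1.22 from SAMR1. Arrb1, an arrestin that uncouples activated receptors, stood at 13.29, 12.93 and 13.53, lowest in SAMP8. Rgs2 was past the limit in TG-treated SAMP8 against SAMR1 alone, at 8.32, 8.58 and 8.95. The kinases Adrbk1, Adrbk2, Grk5 and Grk6 were all within the limit.

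Among 9 genes of receptor partners and effectors, Kcnj9 alone was past the limit with TG, where 8.21% of all probe sets were. It encodes a subunit of the potassium channels that inhibitory receptors open, and stood at 7.69 for SAMR1, 7.70 for SAMP8 and 8.32 for TG-treated SAMP8. A further pair of subunits of such channels, those in the list, lay the other way, with a difference between treated and nontreated SAMP8 of -0.42 for Kcnj6 and -0.41 for Kcnj3. Akap12 and Akap5, anchors that hold protein kinase A near beta receptors, were higher in SAMP8 than in SAMR1 by 0.80 and 0.61. They were the 2 genes of the 9 past the limit between the strains, where 11.1% of all probe sets were. With TG the median difference of the 9 genes was -0.36, and 6 of them were lower.

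**Figure D4:**
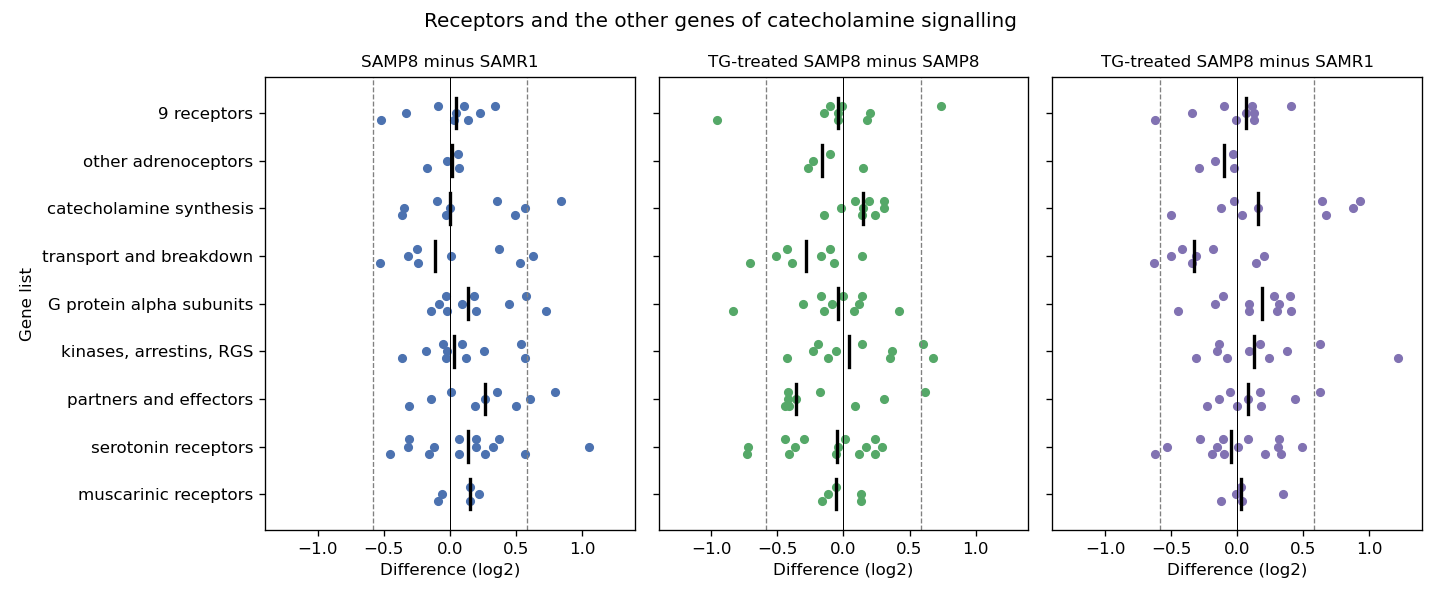
Differences between group averages (log2, horizontal axes; 1 panel per comparison) for the genes of 9 lists (vertical axis); each point is a gene, short black bars are list medians and dashed lines mark 1.5-fold. In the middle panel the 9 receptors have a median of -0.04 with Drd2 and Adra1b outside the lines, and the synthesis and the transport genes have medians of 0.15 and -0.28.

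Receptors for other transmitters were counted in the same way. Of 14 serotonin receptor genes, 0 were higher and 2 lower past 1.5-fold with TG than in nontreated SAMP8, against 4.48% and 3.74% of all probe sets, with a median difference of -0.05. These were Htr1b, at 7.68 for SAMR1, 8.73 for SAMP8 and 8.00 for TG-treated SAMP8, and Htr2a, at 8.32, 8.89 and 8.17. In both, SAMP8 was the highest group, and the differences with TG of -0.73 and -0.72 were smaller than that of Drd2. The 5 muscarinic receptor genes were all within the limit, from -0.16 to 0.13. No test of these lists against each other was possible.

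Marker genes of neighbouring tissues were read beside Drd2 and Adra1b, with counts past 1.5-fold between treated and nontreated SAMP8 to be set against 4.48% of all probe sets higher and 3.74% lower. Drd1 and Drd2 are far better known from the striatum, and of 9 striatal markers 0 were past the limit, with a median of -0.04 and a range from -0.42 for Ppp1r1b to 0.43 for Tac1. The opioid peptide gene Penk was past the limit against SAMR1, at 8.03 for SAMR1, 9.31 for SAMP8 and 9.17 for TG-treated SAMP8. Markers of meninges and smooth muscle differed more between treated and nontreated SAMP8. Of 9 genes, 5 were lower and 1 higher past the limit, and the list's median was -0.76. Among those lower, Ptgds stood at 9.39, 10.26 and 7.57 and Acta2 at 5.52, 7.71 and 5.54. The 1 that was higher was Tagln, at 4.74, 3.91 and 4.62, lowest in SAMP8 where Acta2 was highest. Of 10 probe sets of thalamic markers, 7 were lower with TG and 2 of these past the limit, those of Zic1 (10.91, 11.47 and 9.56) and Prkcd (10.85, 11.03 and 9.53). Of 8 choroid plexus markers 3 were higher and 5 lower, with 1 past the limit in each direction (Ttr: 8.45, 9.33 and 10.05; Kl: 6.17, 6.84 and 6.05). Of 10 hippocampal neuron markers 6 were lower, with a list median of -0.22, and 1 of them past the limit, the granule cell gene Prox1 (11.26, 11.85 and 11.00). Of 7 interneuron markers 5 were higher, and 3 of these past the limit (Vip, Pvalb and Sst, by 0.74, 0.83 and 0.69). The remaining 2, Gad1 and Gad2, were lower within the limit, with differences of -0.35 and -0.43. Astrocyte and macrophage markers (0 of 7 and 0 of 8 past it) were within the limit in this comparison. Between the strains 3 of the 7 astrocyte markers, among them Gfap (11.08, 12.03 and 11.92), were higher past the limit in SAMP8. The same held for 3 of 10 hippocampal neuron markers, 3 of 10 thalamic probe sets and 2 of 8 choroid plexus markers. Of 9 meninges and smooth muscle markers, 3 were higher and 2 lower past it. The striatal, macrophage and interneuron lists had 1 gene each, higher in SAMP8. Between SAMP8 and SAMR1, 11.1% of all probe sets were past the limit in either direction. The part of any of these tissues in the receptor values was not tested.

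Few genes shared the pattern of Drd2. Likeness was measured as the distance between pairs of differences (SAMP8 minus SAMR1 and TG-treated SAMP8 minus SAMP8) over the 3 group averages, among 21366 probe sets with 1 gene symbol. Only 11 lay within 0.1 of Drd2, the nearest being Mtif2, a mitochondrial translation factor (8.12, 8.47 and 7.51 in SAMR1, SAMP8 and TG-treated SAMP8), then Trp53i11 (11.62, 11.95 and 11.00) and Vmn2r31 (5.52, 5.85 and 4.91). Within the same distance of Adra1b lay 75 probe sets, led by Cyb561d2 (6.14, 5.81 and 6.56), C2cd4d (3.38, 3.06 and 3.81) and Cdcp2 (3.68, 3.33 and 4.08). Large differences were rarer than small ones among all probe sets. The counts of 11 and 75 therefore also depend on the size of each receptor's differences. With 3 averages, likeness of this kind describes the order and spacing of the groups and nothing more.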

How the data were processed

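Hippocampal RNA was hybridized to Clariom S Mouse arrays. By the study's methods the intensities were normalized by SST-RMA in the Transcriptome Analysis Console. The processing tools recorded for the samples also include the Affymetrix Expression Console and RMA. The authors deposited 2 tables with log2 group averages for the same 22206 probe sets, annotated on the mouse build mm10 (GRCm38). The averages of SAMP8 were identical in both tables, so all 3 groups share a scale. The tables also hold the authors' fold changes and p-values, which were not used, and no values per array were used, so no test was run. The number of arrays limits the precision.

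Receptors were matched by exact gene symbol, and all 9 were found in the RefSeq annotation of GRCm38, which gave the positions. Differences of averages, counts past 1.5-fold and places among probe sets of like signal (mean within 0.5) were computed with Python 3.11.15, numpy 2.4.6 and pandas 2.3.3, and figures were drawn with matplotlib 3.10.9. The counting was tested on simulated data. Alternatives were fold limits of 1.1 and 2, centring on group medians, leaving out the 25% of probe sets of lowest signal, and probe sets with 1 symbol only. The receptors and gene lists were chosen with earlier results of these data known. Genes named are the 9 receptors, 4 other adrenoceptors, list genes past 1.5-fold (at most 4 per list) and up to 3 genes of widest range per marker or comparison list, beside the nearest patterns. Camk2a, Neurod6, Cd68, Adgre1, Th, Slc6a2, Slc6a3, Gnas, the inhibitory G protein subunits, the receptor kinases, Kcnj3, Kcnj6 and the neighbouring genes were named after their values were seen. So were Gad1, Gad2, Tagln, Csf1r and Itgam. Grk2, Grk3, Arrb2 and Pde4d had no row under these exact symbols, and Adrbk1 and Adrbk2 are the older names of the first pair. Some genes of the lists are not reported here.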

Additional observations from a re-analysis of the deposited data

How the results depend on the processing

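The study used a fold limit of 1.1 together with a p-value criterion, which was not applied here. At that fold limit alone, 5 of the 9 receptors were past it between SAMP8 and SAMR1 (65.5% of all probe sets). The counts were 5 between treated and nontreated SAMP8 (63.4%) and 3 between TG-treated SAMP8 and SAMR1 (64.9%). The Drd3 strain difference of 0.14 lies within rounding of that limit (0.138). At a limit of 2 the counts were 0, 0 and 0, where 2.22%, 0.761% and 1.81% of all probe sets were past it. Without the 25% of probe sets of lowest signal, which removed Drd2, 8 receptors were left and the counts were 0, 1 (Adra1b) and 0. Centring each group on its median and keeping probe sets with 1 symbol left the counts at 0, 2 and 1. Of 27 differences of single receptors, centring turned the sign of 1, that of Adra2a between TG-treated SAMP8 and SAMR1 (-0.01 to 0.01). No paired analysis was possible because the tables hold 1 average per group, and for the same reason no array could be left out. How far the dim signals of Drd2 stand above background was not tested.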

Other observations

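The protein-coding genes next to each receptor with a probe set of their own were looked up in the same tables, a choice made after the receptor values were seen. Ankk1, a kinase gene that begins 7017 bases after the end of Drd2 on chromosome 9, was dim, with averages of 3.56 for SAMR1, 3.30 for SAMP8 and 3.14 for TG-treated SAMP8. Its difference with TG was -0.16, against -0.96 for Drd2, and its strain difference of -0.26 had the opposite sign to the 0.34 of Drd2. On the other side of Drd2, Gm4894 stood at 4.38, 4.89 and 4.79, a difference of -0.10 with TG.

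Next to Adra1b, Ttc1 stood at 5.73, 5.69 and 5.65 in that group order, and Il12b, which lies 498813 bases away, at 4.87, 4.95 and 4.51. Deaf1, a transcription factor gene 712 bases from Drd4, stood at 9.03 for SAMR1 and 9.11 for TG-treated SAMP8, with a strain difference of -0.03, while Drd4 ranged over 0.52. The widest differences among these neighbours belonged to Stmn4, a neuronal microtubule regulator next to Adra1a (12.24, 11.58 and 12.50), and to Sfxn1, a mitochondrial serine transporter next to Drd1 (9.41, 10.19 and 10.13). Adra1a and Drd1 themselves ranged over 0.11 and 0.20.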
